A study of Homo sapiens with 36 samples.

Results

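The 2 ribosomal RNAs encoded by the mitochondrial genome were followed through a polysome gradient in human embryonic stem cells. The 12S rRNA (MT-RNR1, listed as ENST00000389680) and the 16S rRNA (MT-RNR2, listed as ENST00000387347) are 2 of the 223367 transcripts in the table, and both were listed above 1 TPM in all 36 libraries. TPM is an abundance per unit of transcript length, and its sum is 1000000 in every library. The pair was chosen by identity and by their measured levels in all 36 libraries, with earlier results of these data known. Their levels, differences and ratio are therefore given as descriptions, without p-values. Tests were run on the 13 mitochondrial mRNAs that are set beside them.

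Mitochondria carry their own ribosomes, which are distinct from those of the cytosol and translate the mRNAs of the mitochondrial genome. The 12S rRNA is the RNA of the small mitochondrial subunit, where the mRNA is decoded. The 16S rRNA is the RNA of the large subunit, which forms the peptide bond. Both are made from one strand as part of a long precursor and are cut out at the tRNAs that lie between them. RefSeq orders this stretch as MT-TF, MT-RNR1, MT-TV, MT-RNR2 and MT-TL1, with the tRNA for valine between the rRNAs. No coordinates are printed, since that gene table is on another build than hg19, which the submitters name. MT-RNR2 also has near-identical copies in the nuclear genome, of which the RefSeq table lists 13 under the name MTRNR2L. How the reads were divided among these copies is not stated, so the 16S values carry that uncertainty.

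HUES6 cells, an established line of human embryonic stem cells, were grown in FTDA medium. WT cells were compared with cells carrying a knockout of RBPMS (KO), a gene for an RNA-binding protein. All cultures, WT and KO alike, were given cycloheximide at 100 ng/ml for 5 min, which holds cytosolic ribosomes on their mRNAs. Each of the 3 WT and 3 KO cultures was sampled before the gradient (Input) and at 5 positions along it, called 40S, 80S, disome, Polysome1 and Polysome2, so there were 12 groups of 3 libraries. How the knockout was made, and whether the KO cultures came from 1 clone or several, is not stated in the labels. The level of RBPMS was not analysed, so the genotype rests on the labels alone. Nothing in the labels says that cultures of one genotype were grown separately, so the spread between them may be technical. Equal amounts of RNA went into each library, so a value is a share of the RNA in a fraction and not an amount. In such bulk samples fewer cells of a type and less RNA per cell cannot be told apart. The kit captured polyadenylated RNA, and mitochondrial rRNAs carry only short A tails, so the values describe the captured molecules.

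KO replicates 1 and 2 stood apart from the other cultures in their stem cell markers. All 5 stem cell markers (POU5F1, NANOG, SOX2, LIN28A and DPPA4) reached 1 TPM in every Input library. Their summed level in Input was 2443 to 2526 TPM in WT, 2063 TPM in KO replicate 3, 414 TPM in KO replicate 2 and 260.0 TPM in KO replicate 1. POU5F1 made up most of this sum in every Input library but that of KO replicate 1, where it was 33.1 TPM. It was listed at 1775 to 2066 TPM in WT Input and 33.1 to 1606 TPM in KO Input, and SOX2 and LIN28A were also lower in KO without overlap. NANOG (19.0 to 32.1 TPM in KO, 14.3 to 45.0 in WT) and DPPA4 (108 to 217 TPM in KO, 160.1 to 247 in WT) overlapped. KO Input held 18666 to 31380 transcripts at 1 TPM or more, against 34899 to 38389 in WT Input. Single libraries stood apart too. WT 40S replicate 3 held 8956 transcripts at 1 TPM against 14712 and 15949 in the other WT 40S libraries, with a marker sum of 33.7 TPM against 821 and 1093 TPM. WT disome replicate 3 had a marker sum of 2009.6 TPM against 5083 and 5045 TPM, and KO disome replicate 1 held 9867 transcripts against 21024 and 30564. The 4 markers of other lineages stayed below 1 TPM in all libraries, with a highest value of 0.349 TPM. ERCC spike-in RNA, a synthetic set listed in the same table, summed to 305.6 to 1271 TPM in KO Input and to 33.4 to 166 TPM in WT Input, and its total was higher in KO without overlap in all 6 fractions. The part of these differences in the results that follow was not tested. KO values are given for each culture for this reason, and KO replicate 3 is also set alone against WT.

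The 12S rRNA was most abundant in Input and 40S and least abundant in the polysome fractions of WT cells. WT Input held 2669.6, 1426 and 2817 TPM of it in replicates 1, 2 and 3, and WT 40S held 2702, 6134 and 3213 TPM. WT 80S held 422, 333 and 742 TPM. The WT 80S libraries were all below the WT Input libraries, while 40S and Input overlapped. WT disome held 550.3, 191 and 1979 TPM, the widest spread of any WT group relative to its mean (907 ± 946, SD, n = 3), and replicate 3 lay within the range of Input. The lowest levels were those of WT Polysome1, at 173, 120.2 and 201 TPM, and of WT Polysome2, at 115, 92.1 and 169.9 TPM. These last groups overlapped each other, lay below every WT Input, 40S and 80S library, and met only the lowest disome library.

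The 16S rRNA was likewise highest in 40S and Input and lowest in the polysome fractions of WT, but its mean was higher in 80S than in disome, whereas that of 12S was higher in disome. Its level was 15316, 13704 and 23573 TPM in WT Input and 36575, 43306 and 27336 TPM in WT 40S, where it was the second most abundant transcript in each of the 3 libraries. WT 80S held 4217, 3079 and 3469 TPM, and WT disome held 2067, 1025 and 3554 TPM. Here 40S lay above Input without overlap, and 80S and disome lay below it. WT Polysome1 held 826, 563 and 742 TPM and WT Polysome2 held 318, 208 and 527 TPM. The polysome fractions lay below every other WT library, with Polysome2 below Polysome1 without overlap. The mean share of a WT library taken by 16S was 3.57% in 40S and 0.0351% in Polysome2.

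In TPM the KO means of both rRNAs were above the WT means in every fraction, an order that turned around under scaling to the ERCC total. The 12S rRNA was listed at 6559, 4419 and 2024 TPM in KO Input, 23359, 7594 and 8473 TPM in KO 40S, and 2441, 1409 and 841 TPM in KO 80S. KO Input overlapped WT Input, while the KO 40S and KO 80S libraries all lay above those of WT. KO disome held 2244, 1134 and 650.1 TPM of 12S, KO Polysome1 held 1528, 1239 and 375 TPM, and KO Polysome2 held 2433, 2178 and 328 TPM. The disome groups overlapped, and both polysome fractions lay above WT without overlap. The 16S rRNA was listed at 88582, 35184 and 22927 TPM in KO Input and at 285995, 90719.5 and 42259 TPM in KO 40S. KO replicate 1 was thus the highest in both, and in its 40S library 16S alone made up 28.6% of all TPM, while replicate 3 lay within the WT range in both. KO 80S held 42722, 13381 and 8687 TPM of 16S, KO disome held 4788, 11130.0 and 4992 TPM, KO Polysome1 held 16813, 6361 and 2372 TPM, and KO Polysome2 held 28607, 10136 and 1653 TPM. In these 4 fractions every KO library lay above every WT library. Ordered by mean level over the 12 groups, 12S ran from KO 40S (13142 ± 8859 TPM, SD, n = 3) to WT Polysome2 (126 ± 39.9 TPM, SD, n = 3). Neighbours in that order overlapped except KO 40S with KO Input and WT 80S with WT Polysome1. For 16S the order ran from KO 40S (139658 ± 129027 TPM, SD, n = 3) to WT Polysome2 (351 ± 162 TPM, SD, n = 3). Its neighbours overlapped except KO disome with WT 80S, WT disome with WT Polysome1, and WT Polysome1 with WT Polysome2.

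**Figure D1:**
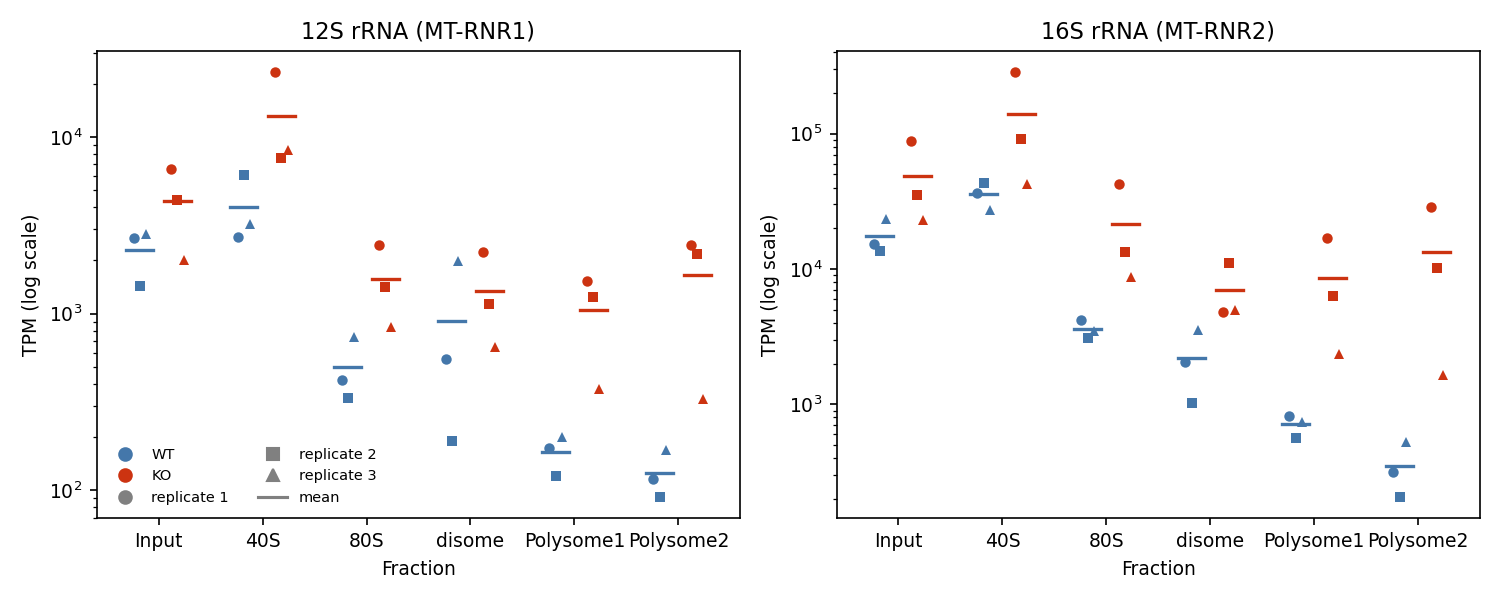
Level of the 12S rRNA (left) and the 16S rRNA (right) in TPM on a log axis, by gradient fraction. Each point is 1 library, blue for WT and red for KO, and bars mark group means. Both rRNAs are highest in Input and 40S. The KO libraries lie above the WT libraries in Polysome1 and Polysome2 for both, an order that held for TPM and turned around in the mean difference when libraries were scaled to their ERCC total.

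Set against the Input of the same culture, both rRNAs were higher in 40S in 6 of 6 cultures. The 12S level in 40S was 1.01 to 4.30 times that in Input, with a median of 2.64, and the 16S level was 1.16 to 3.23 times, with a median of 2.48. Of the 51052 transcripts tested, 0.547% were above Input in 40S in all 6 cultures. Both rRNAs were lower than Input in 80S, disome, Polysome1 and Polysome2 in 6 of 6 cultures, as were 10.5%, 4.30%, 4.02% and 5.56% of all tested transcripts in these fractions. In 80S, Polysome1 and Polysome2 the KO cultures lay above the WT cultures in this measure without overlap for both rRNAs, as did 19.7%, 18.6% and 20.8% of the 25089 tested transcripts listed above 0 in all 6 Input libraries. In 80S 12S was at 0.158 to 0.263 of its Input level in WT and at 0.319 to 0.415 in KO, and KO replicate 3 was the farthest from WT. In Polysome2 16S was at 0.0152 to 0.0223 of its Input level in the WT cultures and at 0.0721 to 0.323 in the KO cultures. For 12S the same fractions of Input were 0.0432 to 0.0646 in WT and 0.162 to 0.493 in KO. There KO replicate 3 was the nearest to WT for both.

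On the log2(TPM + 1) scale the WT 40S level exceeded WT Input by 0.77 (SE 0.76) for 12S and by 1.04 (SE 0.79) for 16S, with SE from the limma model over all 36 libraries. These differences were about as large as their SE, became 0.10 for 12S without WT replicate 2, 1.46 for 16S without WT replicate 3, turned to −1.07 and −0.80 under ERCC scaling, and were 3.42 and 3.70 under median-of-ratios scaling. The difference of WT 80S from WT Input was −2.22 for 12S and −2.26 for 16S. For WT disome it was −1.89 and −3.12, for WT Polysome1 −3.77 and −4.60, and for WT Polysome2 −4.17 and −5.70. These 8 values stayed negative under quantile, median-of-ratios and ERCC scaling, except that 12S in disome was 0.39 under ERCC scaling. The median over all tested transcripts was −0.05 in WT Polysome1 and −0.15 in WT Polysome2, and it moved to 2.33 and 2.57 under ERCC scaling, where the rRNAs had smaller differences (12S −0.37 and −0.26, 16S −1.19 and −1.79).

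KO minus WT was above 0 for both rRNAs in all 6 fractions in TPM, and below 0 for both in all 6 when libraries were scaled to their ERCC total. In TPM the log2 difference for 12S was 0.82 in Input, 1.61 for 40S, 1.59 for 80S, 0.99 for disome, 2.46 for Polysome1 and 3.29 for Polysome2, each with an SE of 0.76. For 16S it was 1.28, 1.55, 2.26, 1.71, 3.17 and 4.58 in the same order, each with an SE of 0.79. The polysome fractions thus had the largest differences for both rRNAs. The size of these, like that of the smaller ones, depended on single cultures. Leaving out 1 replicate at a time, the 12S difference ranged from 2.07 to 3.09 in Polysome1 and from 2.79 to 4.23 in Polysome2. The 16S difference ranged from 2.47 to 3.88 in Polysome1 and from 3.64 to 5.70 in Polysome2. Without WT replicate 2 the 12S difference was 0.18 in disome and 0.50 in Input, and without WT replicate 3 it was 1.86 in disome. Without KO replicate 1 the 12S difference was 0.44 in Input and 0.53 in disome, and that of 16S was 0.74 in Input and 0.82 in 40S. Without KO replicate 3 the 12S difference was 1.29 in Input. Under ERCC scaling the 12S values became −2.26, −1.42, −1.32, −1.37, −1.80 and −2.04 and the 16S values −1.79, −1.47, −0.66, −0.65, −1.10 and −0.76. The median over all tested transcripts was −0.22 in Polysome2 in TPM and −3.40 under ERCC scaling, and both rRNAs lay above it in each case. ERCC scaling shifts all transcripts of a library alike but for the pseudocount, so the second case is not a separate result.

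The 12S rRNA was higher in KO without overlap in 40S, 80S, Polysome1 and Polysome2, and 16S in 80S, disome, Polysome1 and Polysome2. The share of all tested transcripts that was higher in KO without overlap was 6.13% for Input, 8.99% for 40S, 7.09% for 80S, 1.14% for disome, 9.17% for Polysome1 and 9.86% for Polysome2. Since these levels chose the pair, nothing is read from that comparison. KO replicate 3 alone differed from WT by 1.42 for 12S and 2.34 for 16S in Polysome2 on the log2 scale, and by 1.21 and 1.76 in Polysome1. In Input the same culture differed from WT by −0.12 for 12S and 0.43 for 16S. The differences from WT in the polysome fractions were thus larger in KO replicates 1 and 2, the cultures with the low stem cell marker sums.

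Spike-in and rRNA levels moved together across libraries. The correlation of log2 ERCC total with log2 level was 0.879 for 12S and 0.913 for 16S over the 36 libraries, and 0.833 and 0.887 within the 18 WT libraries. For the summed level of the mitochondrial mRNAs it was 0.775 over the 36 libraries. These points share their cultures, fractions and total of 1000000, and the values are a description. The ERCC total in WT was 97.8 to 876 TPM in 40S, 33.4 to 166 TPM in Input and 2.55 to 9.41 TPM in Polysome2, which is the order of the rRNAs as well. The labels do not say how much spike-in was added to each library, and its part in the rRNA levels was not tested.

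**Figure D2:**
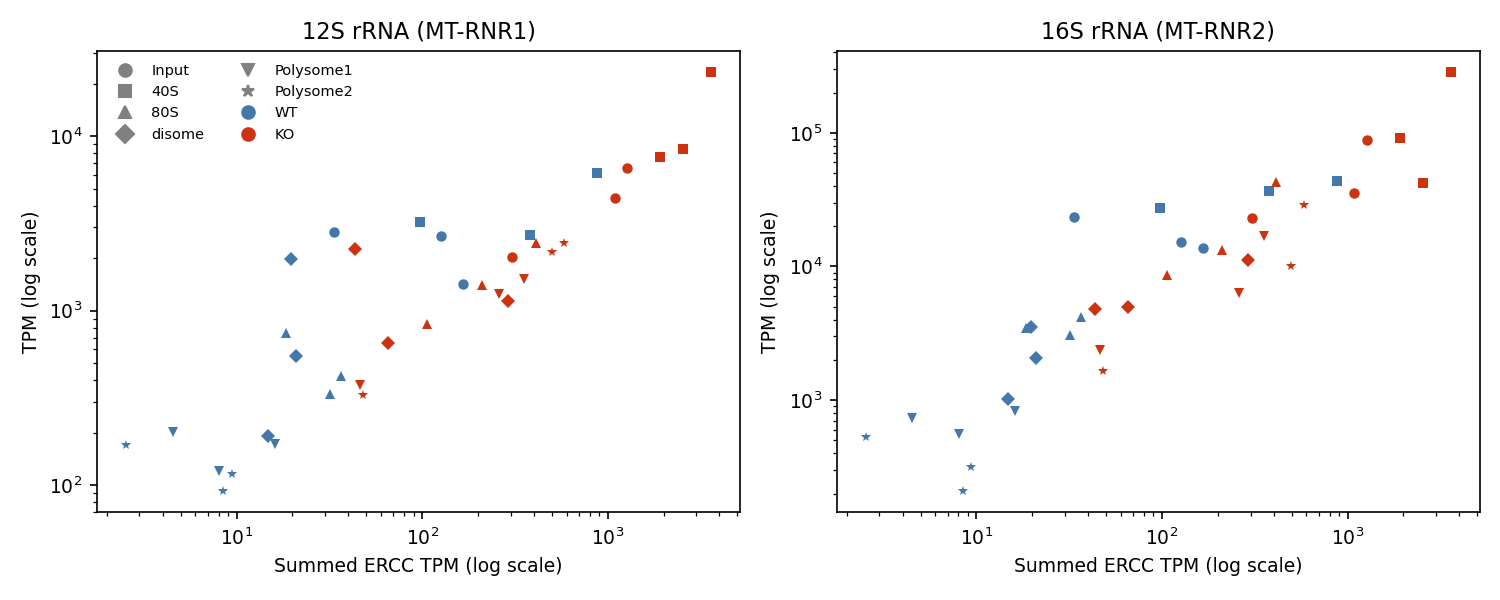
Level of 12S (left) and 16S (right) in TPM against the summed TPM of the ERCC spike-ins, both on log axes. There is 1 point for each of the 36 libraries, blue for WT and red for KO. Points climb together, with a correlation of the log2 values of 0.879 for 12S and 0.913 for 16S, and the KO libraries lie farther to the right than the WT libraries of the same fraction.

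The ratio of 16S to 12S does not depend on the scaling of a library by a common factor. In WT Input it was 5.74, 9.61 and 8.37, a mean of 7.91 ± 1.98 (SD, n = 3), and in WT 40S it was 13.5, 7.06 and 8.51. WT 80S had ratios of 9.98, 9.24 and 4.68. These 3 WT groups overlapped. The ratio was lower in WT disome, at 3.76, 5.36 and 1.80, in WT Polysome1, at 4.79, 4.68 and 3.68, and in WT Polysome2, at 2.76, 2.26 and 3.10. Each of these groups lay below WT Input without overlap, and Polysome2, at 2.70 ± 0.424 (SD, n = 3), also lay below Polysome1, at 4.38 ± 0.608. Over all tested transcripts the level relative to 12S was lower than in WT Input without overlap for 3.49% in disome, 1.67% in Polysome1 and 1.93% in Polysome2. These shares depend on how far 12S itself fell, so nothing is read from them.

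In KO the SD of the ratio was larger than in WT in every fraction. On the log2 scale the SD was alike in Input (0.388 in KO, 0.385 in WT) and smaller for KO in 80S (0.478 against 0.602). The ratio was 13.5, 7.96 and 11.3 in KO Input, 12.2, 11.9 and 4.99 in KO 40S, and 17.5, 9.50 and 10.3 in KO 80S. KO disome gave 2.13, 9.82 and 7.68, KO Polysome1 gave 11.01, 5.13 and 6.33, and KO Polysome2 gave 11.8, 4.65 and 5.04. Every KO fraction overlapped KO Input. In Polysome1 and Polysome2 all KO ratios lay above all WT ratios, with means 1.71 and 2.64 times those of WT, while the genotypes overlapped in the other 4 fractions. KO replicate 3, at 6.33 and 5.04, was among them. Over all tested transcripts the level relative to 12S was higher in KO without overlap for 0.928% in Polysome1 and 1.29% in Polysome2. These shares depend on 12S itself, which was higher in KO in both fractions, so nothing is read from them. Culture by culture, the ratio in Polysome1 and in Polysome2 was below that of the culture's own Input in 6 of 6 cultures. In Polysome1 it was 0.440 to 0.834 of its Input value in WT and 0.559 to 0.815 in KO. In Polysome2 it was 0.235 to 0.480 in WT and 0.445 to 0.871 in KO. Set against their own Input, the genotypes thus overlapped in both fractions. Relative to 12S, 0.0638% and 0.151% of the 25089 transcripts were below their own Input in all 6 cultures in these fractions. As 12S itself was below its Input in every culture there, such shares are low by construction, and nothing is read from them. In disome the ratio was below Input in 5 of 6, with KO replicate 2 at 1.23 times its Input. In 40S and in 80S it was above Input in 3 of 6 cultures. The log2 ratio correlated with the log2 ERCC total at 0.654 over the 36 libraries, 0.678 within WT and 0.450 within KO, so the ratio moved with the spike-in share too.

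**Figure D3:**
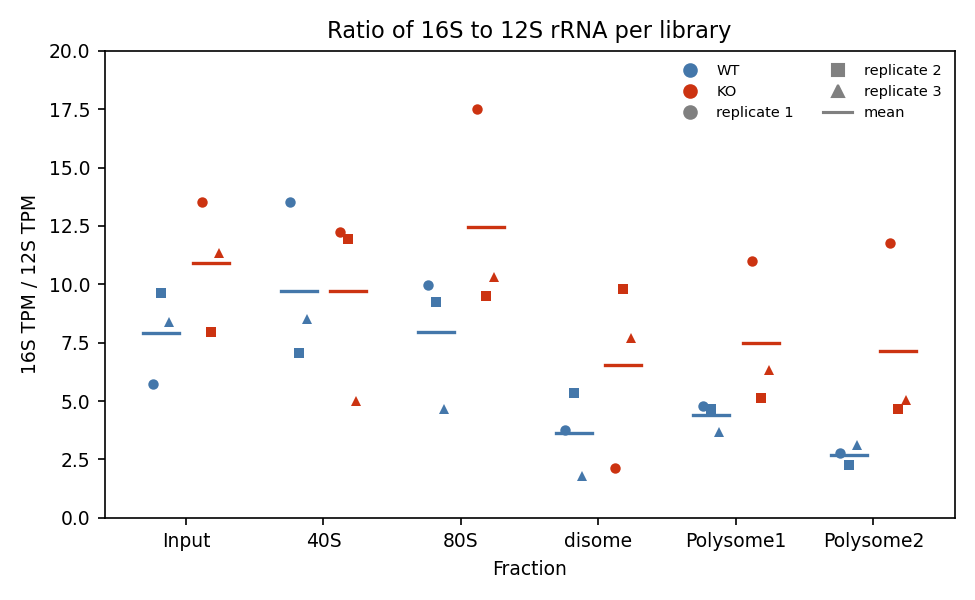
Ratio of 16S to 12S level (both in TPM) by gradient fraction, with 1 point per library, blue for WT and red for KO, and bars at group means. The WT ratios in Polysome2 lie between 2.26 and 3.10, below all WT Input ratios (5.74 to 9.61), and the KO ratios in Polysome2 lie between 4.65 and 11.8.

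The mitochondrial mRNAs give a second reference, since they come from the same organelle. The 13 mRNAs encode subunits of complex I (MT-ND1 to MT-ND6 and MT-ND4L), complex III (MT-CYB), cytochrome c oxidase (MT-CO1 to MT-CO3) and ATP synthase (MT-ATP6 and MT-ATP8). Their summed TPM made up 12.3%, 11.5% and 17.9% of the WT Input libraries and 16.6%, 22.2% and 15.7% of the KO Input libraries. In Polysome2 their share was 0.328%, 0.228% and 0.715% in WT and 6.51%, 6.03% and 1.23% in KO. These mRNAs were thus scarcer in Polysome2 than in Input in both genotypes, as both rRNAs were. In KO the share in Polysome2 lay above WT without overlap.

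None of the 13 mRNAs differed between KO and WT at an adjusted p under 0.05 in Input, 40S, 80S or disome, by limma with Benjamini-Hochberg adjustment over all 51052 transcripts. In these fractions 1.97%, 0.0137%, 0.0627% and 0.0411% of all tested transcripts were called higher in KO and 18.0%, 0.00979%, 0.537% and 2.74% lower. In Polysome1 5 of 13 rose in KO (MT-ND1, MT-ND2, MT-CO2, MT-ATP6 and MT-ND3), against a background of 1.58% higher and 3.84% lower. MT-ND3 had the largest log2 difference there, 3.21 (SE 0.73, limma adjusted p = 0.0158), followed by MT-ATP6 at 2.94. MT-ND2 had the smallest of the 5, 2.66 (SE 0.77, limma adjusted p = 0.0433), next to MT-CO2 at 2.77. In Polysome2 12 of 13 rose, against a background of 1.90% higher and 3.62% lower. MT-ATP6, an ATP synthase subunit, rose by 4.09 (SE 0.81, limma adjusted p = 0.00431), from a mean of 288 TPM in WT to 6388 TPM in KO, and MT-ATP8 was next at 3.80. MT-CO1, the catalytic subunit of cytochrome c oxidase, rose by 2.24 (SE 0.68, limma adjusted p = 0.0488), from 587 to 2536 TPM, and MT-CYB was next to it at 2.33. MT-ND4L did not pass, at 2.38 (SE 0.83, limma adjusted p = 0.0788).

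These calls on the mRNAs rested on few libraries, and the model took the 36 libraries as independent although fractions shared cultures. The Polysome1 count of 5 became 0 without WT replicate 1, WT replicate 2, KO replicate 1 or KO replicate 2, was 2 without WT replicate 3, and was 10 without KO replicate 3. The Polysome2 count of 12 became 1 without WT replicate 1, 3 without WT replicate 2, 3 without KO replicate 1, 1 without KO replicate 2 and 13 without KO replicate 3. Leaving out KO replicate 3 also gave 3 calls in Input (2 higher), 2 lower in 80S and 1 lower in disome, where there were none. In that fit 7.07% of all tested transcripts were called higher and 38.0% lower in Input, and 16.8% and 28.2% lower in 80S and disome. Under ERCC scaling no mitochondrial mRNA was called higher in KO, and 5 were called lower in Polysome2, 6 in Polysome1, 6 in Input, 9 in 80S and 2 in disome. Of all tested transcripts 76.1%, 76.2%, 13.5%, 23.9% and 53.3% were called lower in these fractions under that scaling. A fit of only the 2 groups compared called none of the 13, and no transcript at all, in Polysome1 or Polysome2, where 11750 and 9258 transcripts had an unadjusted p under 0.05.

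Within WT the mRNAs were lower in the heavier fractions, as the rRNAs were. All 13 fell in Polysome1 and in Polysome2 relative to Input, 10 fell in disome, 1 in 80S (MT-ND4L) and 2 in 40S (MT-ND4L and MT-ND5). The background called lower was 8.83% in Polysome1, 8.81% in Polysome2, 10.7% in disome, 19.4% in 80S and 42.5% in 40S. The median log2 difference of the 13 was −4.14 in Polysome1 and −5.12 in Polysome2, where all tested transcripts had medians of −0.05 and −0.15. In Polysome2 MT-ND4 had the most negative difference, −5.52 (SE 0.83, limma adjusted p = 2.06e-05), ahead of MT-CO1 at −5.51. MT-ND3 had the least negative, −3.72 (SE 0.73, limma adjusted p = 0.000612), then MT-ND5 at −4.02. In Polysome1 the ends were MT-ND4L at −4.59 and MT-ATP8 at −4.45, and MT-ND6 at −3.02 and MT-ND5 at −3.09. The 10 that fell in disome ran from MT-ND4L at −3.97 and MT-ATP8 at −3.73 to MT-CYB at −2.49 and MT-ND1 at −2.46. MT-ND4L was also lower in 40S (−3.77) and 80S (−2.87), and MT-ND5 in 40S (−2.77). The disome count was 4 without WT replicate 1 and 2 without WT replicate 2, the 40S count was 0 without WT replicate 3, and the 80S count was 0 without WT replicate 1 or 3. Under ERCC scaling none of the 13 was lower in 80S, disome, Polysome1 or Polysome2, where 1.95%, 1.95%, 1.53% and 1.23% of all tested transcripts were called lower, and 8 were lower in 40S, where 28.8% were. Under median-of-ratios scaling the 40S result turned around, with 5 of 13 higher and none lower, against 10.6% of all tested transcripts higher and 20.7% lower.

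The rRNAs and the mRNAs did not move alike in every fraction. In WT 40S the rRNAs stood 0.77 and 1.04 above Input on the log2 scale, and the mRNAs ranged from −3.77 to 0.24. The summed mRNA level there was 1.28, 2.06 and 0.218 times Input in replicates 1, 2 and 3, so it was lower only in replicate 3. Relative to that sum, 16S was above its own Input in 3 of 3 WT cultures (1.53 to 5.33 times). For 12S this held in 2 of 3 (0.789 to 5.24 times). In WT 80S the rRNA differences were −2.22 and −2.26, and the mRNAs ranged from −2.87 to 0.37 with a median of −0.97. In WT Polysome1 and Polysome2 12S, at −3.77 and −4.17, lay inside the range of the mRNAs. In the same fractions 16S, at −4.60 and −5.70, lay just below the lowest mRNA, which was MT-ND4L at −4.59 in Polysome1 and MT-ND4 at −5.52 in Polysome2. For KO minus WT, both rRNAs exceeded every mRNA in 80S, with 1.59 and 2.26 against a range of −1.64 to 1.25. In Polysome2 12S at 3.29 was close to the median of the mRNAs, 3.25, and 16S at 4.58 was above the highest, MT-ATP6 at 4.09. The difference between 2 transcripts on this scale is unaffected by ERCC scaling but for the pseudocount.

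Expressed as a percentage of the summed TPM of the 13 mRNAs, 16S was 12.4%, 11.9% and 13.2% in WT Input, the tightest of all groups. In WT 40S it was 23.2%, 18.2% and 70.3%, and in WT 80S it was 6.33%, 3.65% and 5.03%. The 40S values lay above and the 80S values below Input, at 2.98 and 0.400 times its mean. The first of these is 1.70 without WT replicate 3, whose 40S library stood apart, and the groups did not overlap without it either. Relative to the mRNA sum, 2.18% of all tested transcripts were above Input without overlap in 40S and 21.1% below it in 80S. The heavier WT fractions lay between these, with 11.9%, 8.45% and 10.6% in disome, 10.7%, 9.18% and 6.69% in Polysome1 and 9.68%, 9.11% and 7.36% in Polysome2. Polysome1 and Polysome2 were below WT Input without overlap, at 0.708 and 0.697 of its mean, as 1.58% and 1.83% of all tested transcripts were. The disome group was also below Input, at 0.824 of its mean, as 2.76% of transcripts were, though these groups overlapped with the geometric mean of the 13 mRNAs in place of the sum. The shares in disome, Polysome1 and Polysome2 depend on the mRNA sum, itself far below Input there, so nothing is read from them.

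In KO the 16S rRNA was higher relative to the mRNAs. It amounted to 53.3%, 15.8% and 14.6% of the mRNA sum in KO Input and to 85.8%, 26.4% and 11.1% in KO 80S. Each of these values, KO replicate 3 included, was above all WT values of the fraction. The same held in KO Polysome1, with 30.5%, 13.9% and 12.4%, and in KO Polysome2, with 43.9%, 16.8% and 13.5%. Set against the culture's own Input, the Polysome1 percentage overlapped between genotypes, at 0.508 to 0.860 times in WT and 0.573 to 0.879 in KO. In Polysome2 it was 0.559 to 0.777 times in WT and 0.825 to 1.06 in KO. The 80S values were 0.307 to 0.509 in WT and 0.761 to 1.67 in KO. The KO means were 2.23, 8.21, 2.14 and 2.84 times the WT means in Input, 80S, Polysome1 and Polysome2, and 1.21, 3.75, 1.49 and 1.74 times without KO replicate 1. Relative to the mRNA sum, 4.02%, 8.16%, 1.08% and 1.32% of all tested transcripts were higher in KO without overlap in these fractions. In Polysome1 and Polysome2 the mRNA sum was itself higher in KO, so nothing is read from the shares there. KO 40S, at 258%, 81.1% and 12.9%, and KO disome, at 71.8%, 17.7% and 10.8%, overlapped WT. A geometric mean of the 13 mRNAs in place of the sum, chosen after the values were seen as the sum itself was, gave the same 4 fractions without overlap. The KO median was always that of replicate 2 and the highest value that of replicate 1.

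The 12S rRNA relative to the mRNAs overlapped between the genotypes in every fraction, though only narrowly in 80S. It was 2.17%, 1.24% and 1.58% of the mRNA sum in WT Input and 3.94%, 1.99% and 1.29% in KO Input. In Polysome2 it was 3.51%, 4.03% and 2.38% in WT and 3.74%, 3.61% and 2.68% in KO. The genotypes overlapped there and in the other 4 fractions. In KO 80S it was 4.90%, 2.78% and 1.07%, with a mean of 2.92% against 0.702% in WT, and only KO replicate 3 met the WT range. Set against the culture's own Input, this 80S percentage was 0.292 to 0.682 times in WT and 0.834 to 1.40 times in KO. Within WT 12S relative to the mRNA sum was lower than Input in 80S, at 0.634%, 0.395% and 1.08%, and higher than Input in Polysome2. The mean in WT Polysome2 was 1.99 times that in WT Input, without overlap, as 67.2% of all tested transcripts were higher relative to the mRNA sum there. With the geometric mean of the 13 mRNAs in place of their sum, 12S in WT 80S and in WT Polysome2 overlapped WT Input.

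**Figure D4:**
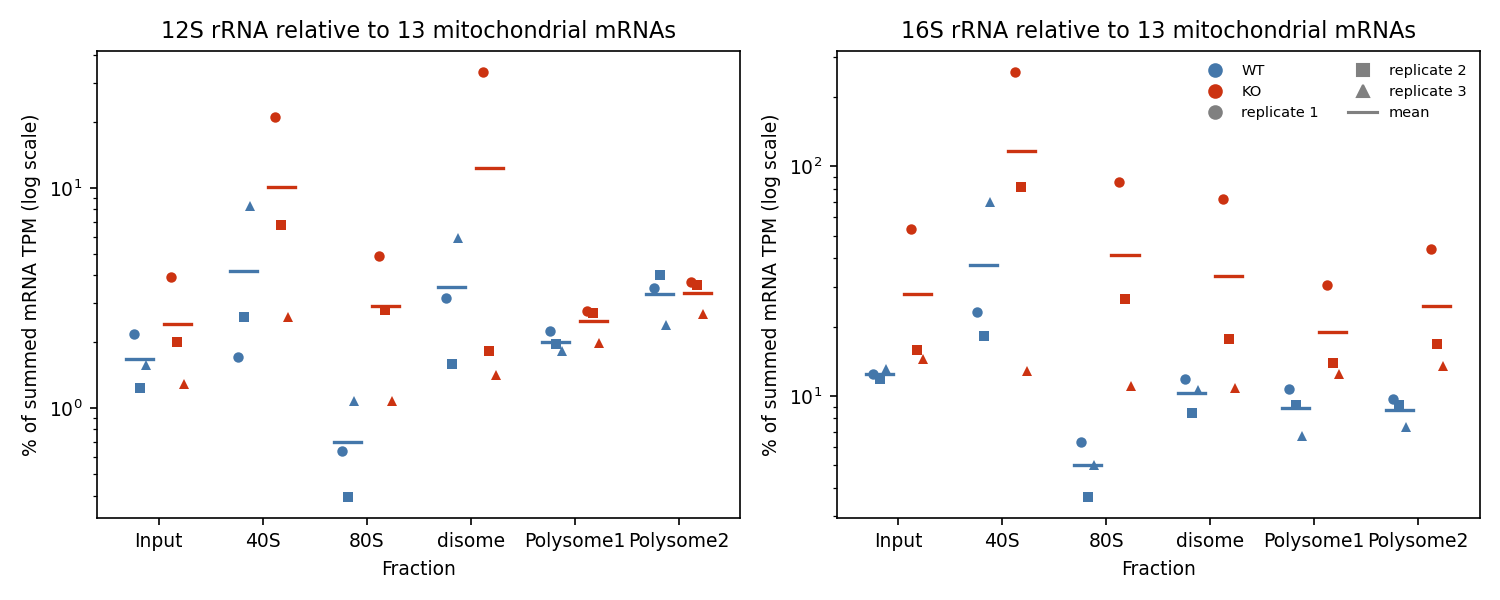
12S (left) and 16S (right) as a percentage of the summed TPM of the 13 mitochondrial mRNAs, on a log axis, by fraction. There is 1 point per library, blue for WT and red for KO. For 16S every KO point lies above every WT point in Input, 80S, Polysome1 and Polysome2. For 12S the genotypes overlap in all 6 fractions, in 80S only through KO replicate 3.

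The tRNAs that border the rRNAs were listed below both rRNAs in all 36 libraries. MT-TV, which lies between the rRNAs, was at 2.71 to 39.9 TPM in the 6 Input libraries, at 0, 0 and 2.75 TPM in WT Polysome2 and at 174, 68.9 and 0 TPM in KO Polysome2. MT-TL1, next to 16S, reached 44.2 to 117 TPM in WT Input and 74.0, 153.5 and 610.0 TPM in KO Input. In Polysome2 MT-TL1 was at 10.3, 0 and 6.63 TPM in WT and at 757, 311 and 5.69 TPM in KO replicates 1, 2 and 3. The KO replicates came in the same order there as for 16S. For MT-TL1 replicate 3 lay within the WT range, whereas for 16S it lay above it. MT-TF, upstream of 12S, was listed at 0 in all 3 WT Polysome2 libraries and at 236, 118 and 0 TPM in KO Polysome2. No fold is given against a group listed at 0. As TPM keeps no read numbers, how many reads these tRNA values rest on is unknown.

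Across the 36 libraries the pattern most like that of each rRNA was that of the other. The correlation of the log2 levels of 12S and 16S was 0.958 over all libraries, 0.959 within WT and 0.929 within KO. The next most similar transcript to 12S was ENST00000549103, at 0.907, and to 16S ENST00000387461, at 0.929, which the files do not pair with a gene. Among the 13 mitochondrial mRNAs MT-CO2, a subunit of cytochrome c oxidase, was the most similar to both, at 0.858 with 12S and 0.911 with 16S. MT-ND4L was the least similar to both, at 0.416 and 0.508. These correlations are a description over libraries that share cultures and fractions.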

How the data were processed

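RNA of 36 libraries (6 gradient fractions of 3 WT and 3 KO cultures) was measured. The authors' deposited table holds TPM for 223367 transcripts and 92 ERCC spike-ins, made with tools named as kallisto and sleuth on hg19, per the submitters' processing notes, which give no versions. TPM keeps no read numbers, so sequencing depth is unknown and values have no counting interval. No sample column was left unused. Libraries were grouped by their descriptions, where the Input of KO replicate 3 is called Input2.

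The table has no gene names, and the RefSeq gene table (GRCh38.p14) has no Ensembl IDs. The rRNAs were taken by ID, and the 13 mitochondrial mRNAs, 3 tRNAs and markers by Ensembl IDs written from general knowledge, which no file checks. The members, lists and rules were chosen with earlier results of these data known, and the ratios to mitochondrial mRNAs and the ERCC scaling after the values were seen. Named genes were both rRNAs, the 2 highest and 2 lowest mRNAs past the threshold in each comparison, the 3 tRNAs, and the transcripts of highest correlation with each rRNA. Other genes with values were named after these were seen.

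Values were transformed as log2(TPM + 1), and the 51052 transcripts that reached 1 TPM in 3 or more libraries were fitted with 12 group means in limma 3.58.1 (R 4.3.3), with a variance trend and 24 residual degrees of freedom. P-values were adjusted by Benjamini-Hochberg within each comparison at 0.05. Libraries of one culture were taken as independent. Deviations of KO fractions correlated with those of their Input at 0.294 to 0.705, so the p-values do not measure the spread between cultures alone. The script was tested on simulated data. Differences and SE of the rRNAs come from this fit, without p. Scaling, filter, pseudocount and left-out replicates were varied.

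Replicate numbers of WT and KO did not pair the cultures: the correlation of deviations exceeded 0.1 in 1 of 18 pairs (−0.709 to 0.107). Fractions of one culture share their number by design: 15 of 15 KO pairs with Input exceeded 0.1, and 5 of 15 WT pairs. Figures were drawn with matplotlib 3.10.9 in Python 3.11.15.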

Additional observations from a re-analysis of the deposited data

How the results depend on the processing

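The levels are shares of equal RNA inputs without read numbers, from 3 cultures a group, and the ERCC amount added is unknown. The ERCC scaling and the fit on KO replicate 3 alone were chosen after seeing the data, and the cause of the changes they made was not tested.

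Under ERCC scaling the KO minus WT log2 difference in Input, 40S, 80S, disome, Polysome1 and Polysome2 was −2.26, −1.42, −1.32, −1.37, −1.80 and −2.04 for 12S and −1.79, −1.47, −0.66, −0.65, −1.10 and −0.76 for 16S. The WT difference from Input in 40S, 80S, disome, Polysome1 and Polysome2 was then −1.07, −0.55, 0.39, −0.37 and −0.26 for 12S and −0.80, −0.58, −0.84, −1.19 and −1.79 for 16S. With KO replicate 3 alone, 12S was −0.12 in Input, 0.83 in 80S, 1.21 in Polysome1 and 1.42 in Polysome2, and 16S was 0.43 in Input, 0.27 in 40S, 1.29 in 80S, 1.76 in Polysome1 and 2.34 in Polysome2.

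Quantile normalization gave 12S differences from WT Input of 0.080 in 40S, −4.41 in Polysome1 and −4.84 in Polysome2, a 16S difference of 0.45 in WT 40S, and KO minus WT values for 16S of 0.30 in Input and 0.43 in 40S. It moved the log2 ratio of 16S to 12S, KO minus WT, to −0.22 in Input and −1.01 in 40S, and the WT difference from Input to −0.51 in disome, −0.36 in Polysome1 and −1.17 in Polysome2. Median-of-ratios scaling gave 3.42 (12S) and 3.70 (16S) in WT 40S, −1.48 and −1.52 in WT 80S, and 2.76 for 16S in KO against WT disome. A pseudocount of 0.1 moved no rRNA value by more than the replicate SD.

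The count of the 13 mRNAs higher in Polysome1 (5) was 1 with a pseudocount of 0.1 and with no filter, 2 with a 10 TPM filter, with median-of-ratios scaling and with totals without mitochondrial transcripts, and 0 with only the 2 groups compared. Under ERCC scaling it was 6, all lower. In Polysome2 (12) it was 6 with no filter, 0 with only 2 groups, and 5, all lower, under ERCC scaling. ERCC scaling also gave 6 calls in Input, 9 in 80S and 2 in disome, all lower, and in WT against Input 8 in 40S and 0 in 80S, disome, Polysome1 and Polysome2. Median-of-ratios scaling gave 1 call in KO against WT Input and 1 in 40S, and 5 in WT 40S, all higher there. In WT 80S the count was 2 under quantile normalization and 5 with only 2 groups.

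Leaving out 1 replicate at a time, the KO against WT counts ranged from 0 to 3 in Input, 0 to 2 in 80S, 0 to 1 in disome, 0 to 10 in Polysome1 and 1 to 13 in Polysome2, and the WT counts from 0 to 2 in 40S, 0 to 1 in 80S and 2 to 12 in disome. The WT 40S difference from Input ranged from 0.10 to 1.15 for 12S, 0.73 to 1.46 for 16S, and −0.21 to 0.63 for the log2 ratio. KO minus WT in disome ranged from 0.18 to 1.86 for 12S and from 1.25 to 2.14 for 16S.

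With the replicate number as a block, the KO against WT counts were 5 in Polysome1 and 12 in Polysome2. For WT against Input the block was the culture, and the WT disome count was 12. No count moved by more than 1.5 times under these blocks. WT and KO share only a number.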
